A study of Mus musculus with 52 samples.

Results

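The step from fibroblast to day 4 of reprogramming was followed in Mbd3+/+ mouse cells through 3 histone marks, H3K27ac, H3K4me3 and H3K27me3, each profiled by ChIP-seq at both stages. Its members were the 6 peak lists whose titles name the wild-type genotype, 1 of these marks and either mouse embryonic fibroblasts (MEF) or day 4 of doxycycline (DOX). They are 6 of the 52 samples of the series and hold 164570 of the 928298 peaks. The series compares Mbd3+/+, Mbd3flox/- and Mbd3-/- cells on the way to induced pluripotent stem (iPS) cells. Mbd3 belongs to NuRD, a complex that joins histone deacetylation to nucleosome remodelling.

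All 6 samples came from Mbd3+/+ fibroblasts with a DOX-inducible transgene for Oct4, Sox2, Klf4 and Myc (OSKM), and the wild-type line was 1 clone with a GOF18 deltaPE-Oct4-GFP reporter. The MEF were taken before DOX and the day 4 cells after DOX at 2 ug/ml from day 0. MEF were grown in serum medium (DMEM with FBS) and induced cells in mouse ES cell medium (N2B27 with KSR and 2i/LIF), so factor induction, medium and time cannot be told apart. Per the series' design text, cells were not sorted by reporter before the assays. The day 4 H3K27me3 sample is titled day 4, although its stage label gives day 5, and the title was followed. The fibroblast identity of the MEF was not checked here against marker genes, because no annotation of mm9, the build of the files, was used.

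H3K27ac marks active promoters and active enhancers, H3K4me3 marks promoters, and H3K27me3 is laid down by Polycomb over repressed genes. Oct4 is a pioneer factor of pluripotency that binds enhancers together with Sox2. In fibroblasts, forced OSKM is known to meet an enhancer set of the somatic cell type, which has to be closed while pluripotency enhancers open.

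A MEF peak was called lost when it shared no base with a day 4 peak of the same mark, and otherwise kept. A day 4 peak was called new when it shared no base with a MEF peak. H3K27ac and H3K27me3 peaks were called promoter-like when they shared at least 1 bp with an H3K4me3 peak of the same stage, and otherwise distal. Each stage had 1 library per mark, so there is no replicate check and no test. Shares are given with 95% Wilson intervals and differences with 95% Newcombe intervals, in percentage points, which cover the counting of peaks only. Read depth is unknown, so a lost peak is one that was not detected. In cell populations, fewer cells with a mark and less of the mark per cell cannot be told apart. The score of a peak is the authors' own value and was compared only within a list. All coordinates are mm9 and 1-based.

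**Figure D1:**
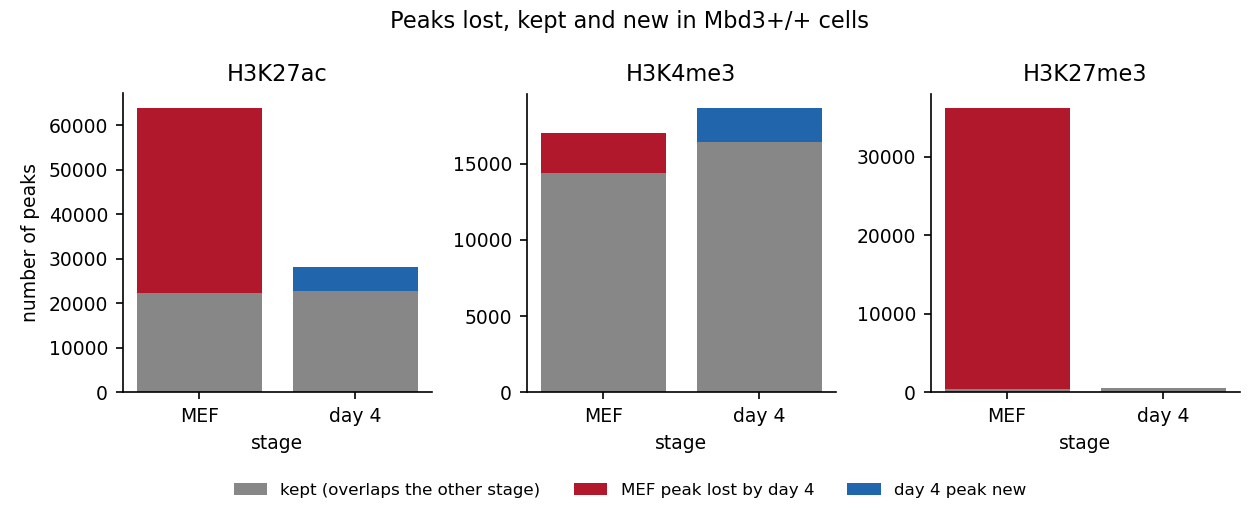
Number of peaks in the MEF and day 4 lists of each mark in Mbd3+/+ cells. Each panel has its own vertical axis. Grey shows peaks that overlap the other stage, red MEF peaks that were lost and blue day 4 peaks that were new. H3K27ac fell from 63888 to 28173 peaks, H3K4me3 went from 17023 to 18684, and H3K27me3 fell from 36232 to 570.

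The plot of peaks by fate shows 3 different courses. The H3K27ac list shrank mainly by losing MEF peaks, the H3K4me3 list changed little in number, and the H3K27me3 list almost emptied.

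H3K27ac was detected at far fewer places on day 4, and nearly all of the losses lay outside H3K4me3. The MEF list held 63888 H3K27ac peaks over 192 Mb and the day 4 list 28173 peaks over 91.8 Mb. Of the MEF peaks, 41544 (65.0%, 64.7 to 65.4) were lost and 22344 were kept. Of the 51690 distal peaks, the class in which enhancers fall, 40000 were lost, or 77.4% (77.0 to 77.7). Of the 12198 promoter-like peaks, 1544 were lost, or 12.7% (12.1 to 13.3). The difference was 64.7 points (64.0 to 65.4). Counted in bases, 35.2% of the sequence under MEF H3K27ac was still under an H3K27ac peak on day 4, with 70.0% for promoter-like and 22.7% for distal peaks.

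Kept peaks mostly overlapped over much of their extent. The median kept promoter-like MEF peak had 86.0% of its width covered on day 4 and the median kept distal peak 80.2%. Among distal kept peaks 2563, or 21.9%, had under 50% of their width covered. At the other side of the 1 bp limit, 39750 of the 63888 MEF peaks had no day 4 peak within 1 kb. Of the 18343 pairs in which 1 MEF peak met 1 day 4 peak, 31.8% were wider on day 4, and the median ratio of day 4 to MEF width was 0.872. It was 0.881 for promoter-like and 0.848 for distal pairs, and the lower and upper quartiles of the distal ratios were 0.561 and 1.23.

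Lost peaks were the weaker and narrower ones, but the gap between distal and promoter-like peaks held at every level of score. Lost distal peaks had a median width of 1810 bp and kept distal peaks 3082 bp, with median scores of 165 and 676. In the lowest quartile of MEF scores, 90.1% of distal and 77.0% of promoter-like peaks were lost. In the second quartile the shares were 85.3% and 64.0%, and in the third 73.7% and 24.1%. In the highest quartile 2952 of 7305 distal peaks (40.4%, 39.3 to 41.5) were lost, against 223 of 8667 promoter-like peaks (2.57%, 2.26 to 2.93). Among the widest quartile of MEF peaks, 52.3% of distal and 4.58% of promoter-like peaks were lost. When the MEF list was cut to its 28173 peaks of highest score, so that both stages had equal numbers, 38.1% of MEF peaks were lost and the distal minus promoter-like difference was 52.0 points.

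**Figure D2:**
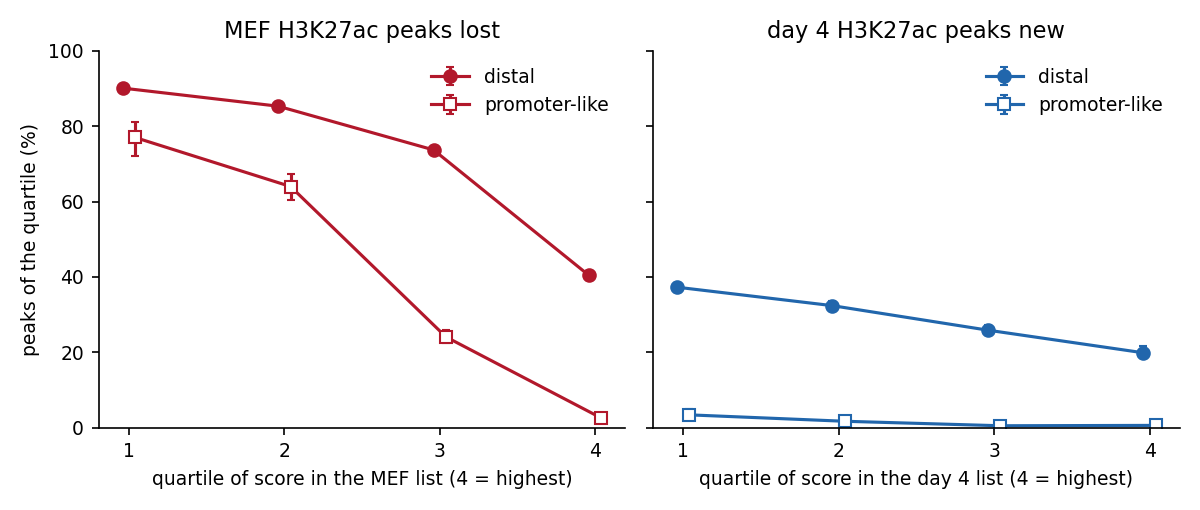
Share of H3K27ac peaks lost (left, MEF list) or new (right, day 4 list), in percent, by quartile of the authors' score within the list, with 95% Wilson intervals. Filled circles are distal and open squares promoter-like peaks. Distal shares lie above promoter-like shares in all 4 quartiles of both panels, and the share lost falls to 40.4% for distal and 2.57% for promoter-like peaks in the highest quartile.

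The loss was spread over the genome. Among chromosomes, the share of distal H3K27ac peaks lost ran from 72.8% on chromosome 19 to 84.0% on the X chromosome. Lost distal peaks lay a median of 50.2 kb from the nearest MEF H3K4me3 peak, against 36.6 kb for kept distal peaks. Their median distance to the nearest day 4 H3K27ac peak was 18.1 kb, and 21.6% had one within 5 kb.

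The 3 lost distal peaks of highest score show the extreme of this class. One spanned 5725 bp of chromosome 3 (94223926 to 94229650), another 12039 bp of chromosome 17 (75665782 to 75677820) and the last 5048 bp of chromosome 2 (135686673 to 135691720). Each had H3K27ac in flox/- MEF too, and none overlapped H3K27ac on day 4 of either genotype, on day 8 or in iPS cells. None overlapped a day 4 Oct4 peak. Large domains could also shrink to a remnant that still counts as kept. The largest such reduction was on chromosome 2, where a distal MEF peak at 117449166 to 117507797 (58632 bp) met a single day 4 peak of 1867 bp. The next were on chromosome 9, from 41003 to 2344 bp, and on chromosome 1, from 32463 to 2897 bp. None of these 3 domains overlapped a day 4 Oct4 peak, and among all kept distal MEF peaks 31.9% did.

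New H3K27ac was distal almost without exception. Of the 28173 day 4 peaks, 5521 were new (19.6%, 19.1 to 20.1), and 5412 of those were distal. The new share was 31.2% of 17345 distal peaks (30.5 to 31.9) and 1.01% of 10828 promoter-like peaks (0.835 to 1.21), a difference of 30.2 points (29.5 to 30.9). The median width was 2320 bp for new and 2611 bp for kept distal peaks of day 4, with median scores of 105 and 139. New distal peaks lay a median of 8.56 kb from the nearest MEF H3K27ac peak, and 34.9% lay within 5 kb of one. With equal numbers of peaks per stage the new share was 33.5%, and with every peak set to 250 bp either side of its midpoint 51.5%. In bases, 73.5% of the sequence under day 4 H3K27ac had been under MEF H3K27ac.

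The highest-scoring new peaks carried Oct4. The 3 new distal peaks of highest score, tied at 3100, were on chromosome 2 (91266389 to 91275666), chromosome 6 (31540550 to 31553383) and, last, chromosome 19 (40417329 to 40428605). They were 9278, 12834 and 11277 bp wide and held 2, 4 and 2 day 4 Oct4 peaks. All 3 overlapped H3K27ac on day 8 and in day 4 flox/- cells, and none did in flox/- MEF. In iPS cells those on chromosomes 2 and 6 overlapped H3K27ac and that on chromosome 19 did not. The largest gain of width among kept distal peaks was on chromosome 3, where a MEF peak of 2913 bp at 83796673 to 83799585 met a day 4 peak of 21667 bp, and the MEF extent held 1 day 4 Oct4 peak. The next were on chromosome 13, from 2342 to 18186 bp, and on chromosome 17, from 1019 to 15002 bp, each also with 1 Oct4 peak. Whether change of width went with Oct4 over all kept distal peaks was not tested.

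The overlap with Oct4 separated the H3K27ac classes. The day 4 Oct4 list held 16785 peaks with a median width of 746 bp, and 33.6% of all day 4 and 10.1% of all MEF H3K27ac peaks overlapped it. Among distal peaks, Oct4 was found at 60.8% of 5412 new peaks (59.5 to 62.1), 32.6% of kept day 4 peaks, 31.9% of kept MEF peaks and 1.55% of lost MEF peaks. Kept exceeded lost distal MEF peaks by 30.4 points (29.5 to 31.3), and new exceeded kept distal day 4 peaks by 28.2 points (26.7 to 29.8). Among promoter-like MEF peaks the shares were 19.1% of kept and 3.11% of lost peaks. Since a wide peak meets more Oct4 peaks, each H3K27ac peak was also replaced by 500 bp around its midpoint, with its class as before. The distal shares were then 54.0% of new, 23.1% of kept day 4, 18.5% of kept MEF and 0.915% of lost MEF peaks. With every list set to 250 bp either side of the midpoint, classes included, Oct4 was found at 31.0% of new distal peaks and kept exceeded lost distal peaks by 16.6 points. In the Oct4 lists made before DOX, the most hits in any distal class were 17 of 40000 lost and 14 of 11690 kept MEF peaks, both in the flox/- list. Those lists hold 274 (+/+) and 489 (flox/-) peaks, which caps the number of hits, so they give little measure of background.

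**Figure D3:**
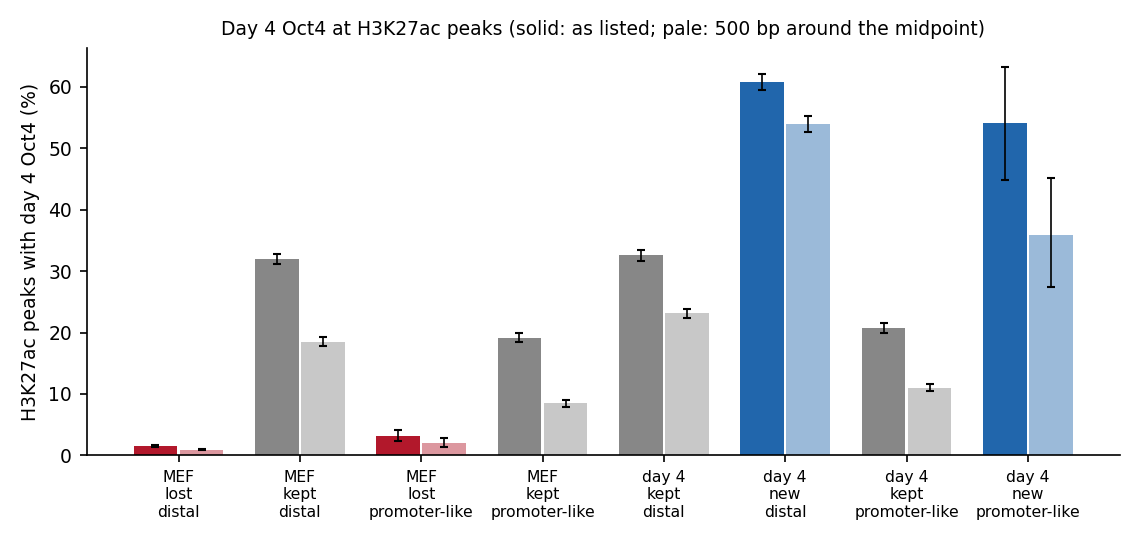
Share of Mbd3+/+ H3K27ac peaks that overlap a day 4 Oct4 peak, in percent, by stage, fate and class, with 95% Wilson intervals. Solid bars use the peak as listed and pale bars 500 bp around its midpoint. New distal peaks stand at 60.8% and 54.0%, and lost distal peaks at 1.55% and 0.915%.

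The difference in Oct4 between kept and lost distal peaks was of similar size in each quartile of MEF score. From the lowest to the highest quartile of MEF score, Oct4 was found at 31.3%, 31.2%, 30.8% and 33.5% of kept distal peaks. Among lost distal peaks the share stayed between 1.2% and 2.91%. By the score on day 4 the shares were graded. From the lowest to the highest quartile of day 4 score, Oct4 was found at 41.2%, 64.6%, 84.4% and 98.4% of new distal peaks, the last being 444 of 451. For kept distal peaks the day 4 quartiles gave 11.8%, 23.8%, 44.6% and 77.0%, so new exceeded kept peaks in each quartile. Day 4 peaks with Oct4 were also wider, with a median of 2640 bp against 1947 bp among new distal peaks and of 3762 bp against 2300 bp among kept distal peaks.

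Oct4 sat near the centre of new peaks. In the 3291 new distal peaks with Oct4, the nearest Oct4 midpoint lay a median of 198 bp from the H3K27ac midpoint, and 81.3% lay within 500 bp. In kept distal day 4 peaks the median was 355 bp and in kept promoter-like peaks 589 bp. Narrow peaks leave less room for an offset. As a share of the way from the centre of the H3K27ac peak to its edge, the median distance was 14.5% in new distal, 19.2% in kept distal and 27.9% in kept promoter-like peaks on day 4. In the 619 lost distal MEF peaks that overlapped Oct4 it was 42.9%, with a median of 447 bp. In the 3734 kept distal MEF peaks that overlapped Oct4 it was 32.6%, with a median of 527 bp.

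**Figure D4:**
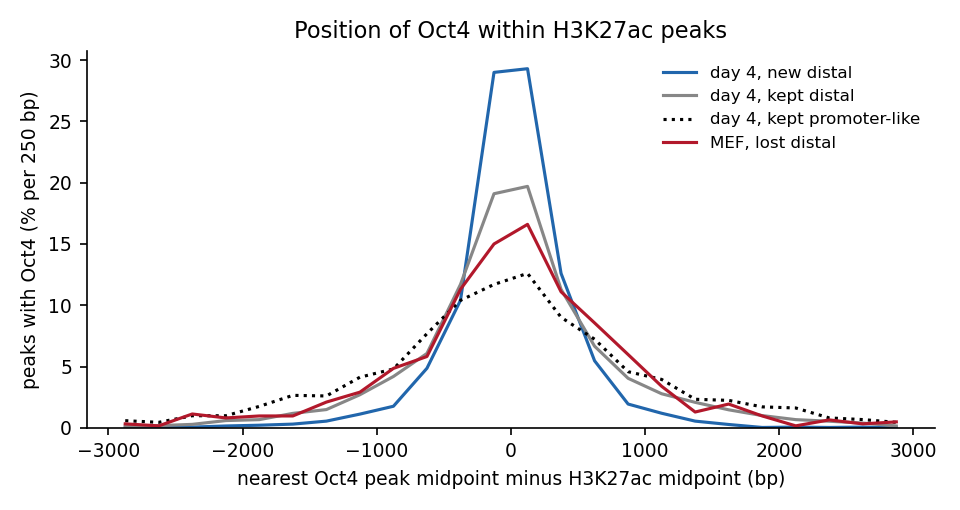
Distance in bp from the midpoint of an H3K27ac peak to the midpoint of the nearest day 4 Oct4 peak, for H3K27ac peaks that overlap Oct4, as percent of those peaks per bin of 250 bp. Lines show new distal, kept distal and kept promoter-like day 4 peaks and lost distal MEF peaks. The line of new distal peaks is the narrowest, with 81.3% of them within 500 bp of the centre.

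Seen from Oct4, the strongest peaks lay most often on H3K27ac, and the share on day 4-only H3K27ac was graded by score. Of the 4197 Oct4 peaks in the highest quartile of Oct4 score, 45.2% lay on H3K27ac detected on day 4 only, 43.6% on H3K27ac of both stages and 10.5% on none. Of the 4196 in the lowest quartile, 12.9% lay on H3K27ac detected on day 4 only, 37.4% on that of both stages and 42.1% on none. Oct4 peaks on H3K27ac of MEF only were 733 of 16785, or 4.37%, and made up 0.739% of the highest quartile.

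Later lists and the other genotype, neither of them used to define the classes, gave separate readouts of the same places. On day 8 of +/+ cells, H3K27ac was found at 87.2% of kept distal MEF peaks, at 67.1% of new distal peaks and at 13.1% of lost distal peaks (kept minus lost 74.1 points, 73.4 to 74.7). The iPS list of +/+ cells had H3K27ac at 39.6%, 36.4% and 11.7% of them. Of the 40000 lost distal peaks, 79.4% were found neither on day 8 nor in iPS cells and 7.46% in iPS cells only. Of the 5412 new distal peaks, 32.4% were found at both later stages, 34.8% on day 8 only and 28.8% at neither. With or without Oct4, new distal peaks were found in iPS cells at 35.0% and 38.5%, a difference of -3.55 points (-6.18 to -0.918), whereas kept distal MEF peaks were found there at 45.2% and 36.9%.

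In flox/- cells, which carry 1 floxed and 1 null Mbd3 allele and the full GOF18 Oct4-GFP reporter, the same places were read in lists of the second genotype. Among +/+ MEF peaks, flox/- MEF had H3K27ac at 62.9% of lost distal and 85.7% of kept distal peaks, which is 22.8 points apart (22.0 to 23.5) before any DOX. Of the 25159 lost distal peaks that flox/- MEF did hold, 92.3% had no flox/- day 4 peak. Of the 10014 kept distal peaks that flox/- MEF held, 49.2% had none. New distal peaks were found at 11.8% in flox/- MEF and 59.9% in flox/- day 4 cells. Day 4 Oct4 of flox/- cells, a separate Oct4 library, was found at 47.8% of new, 25.3% of kept MEF and 4.07% of lost distal peaks.

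**Figure D5:**
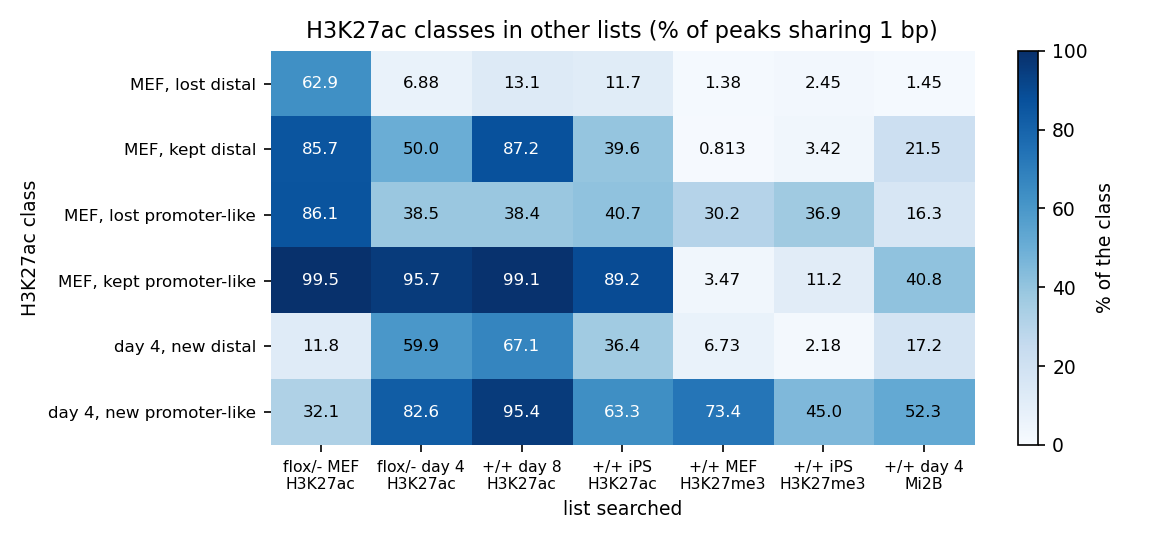
Percent of each +/+ H3K27ac class (rows) that shares at least 1 bp with other lists (columns). Darker blue is a higher share, from 0 to 100%, and each cell prints its value. Lost distal peaks are at 62.9% in flox/- MEF but 13.1% on day 8, and new promoter-like peaks at 73.4% in the MEF H3K27me3 list.

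Mi2B, the remodelling ATPase of NuRD, was read from the list titled day 4, whose stage label gives day 7. It was found at 21.5% of kept distal, 17.2% of new distal and 1.45% of lost distal peaks, and at 40.8% of kept and 16.3% of lost promoter-like peaks. Kept peaks were wider, and with 500 bp around the midpoint the shares were 9.20% of kept and 0.795% of lost distal peaks (difference 8.41 points, 7.89 to 8.95), and 17.4% and 10.4% of promoter-like peaks (7.01 points, 5.24 to 8.61). Among kept distal MEF peaks 42.6% of those with Oct4 and 11.7% of those without had Mi2B. In the same window, the Mi2B shares of new and kept distal day 4 peaks were 11.0% and 11.1%, a difference of -0.172 points (-1.16 to 0.850).

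Promoter-like H3K27ac that changed carried Polycomb marks more often than that which did not. Among promoter-like MEF peaks, MEF H3K27me3 was found at 30.2% of the 1544 lost and 3.47% of the 10654 kept peaks. With 500 bp around the midpoint these shares were 23.5% and 1.55%. H3K27me3 of iPS cells was found at 36.9% of lost and 11.2% of kept peaks, a difference of -25.7 points for kept minus lost (-28.2 to -23.3). Most of the lost ones were still promoters by mark, with H3K4me3 at 66.1% on day 4 and 89.7% in iPS cells. Their H3K27ac was found again at 38.4% on day 8 and at 40.7% in iPS cells. The highest-scoring lost one that kept H3K4me3, on chromosome 7 (31201041 to 31208953), had H3K27ac again on day 8 and in iPS cells. The next, on chromosome 1 (75353259 to 75359343), lost H3K4me3 too and had H3K4me3 with H3K27me3 in iPS cells. Also on chromosome 1 (137218987 to 137225998), the last of the 3 lost both active marks by day 4, had H3K27ac again on day 8 and had H3K27me3 in iPS cells. Of the 109 new promoter-like peaks, 73.4% overlapped MEF H3K27me3, 49 overlapped MEF H3K4me3, 54.1% overlapped day 4 Oct4, and 95.4% had H3K27ac on day 8. Among kept promoter-like day 4 peaks, 3.56% overlapped MEF H3K27me3, 20.8% overlapped day 4 Oct4 and 99.2% had H3K27ac on day 8. In flox/- MEF, before any DOX, 32.1% of the 109 had H3K27ac. The largest of the 3 with the highest scores was on chromosome 6 at 52107179 to 52136287 (29109 bp). It overlapped both H3K4me3 and H3K27me3 in MEF and H3K27ac in flox/- MEF, and held 5 Oct4 peaks. A second on chromosome 6 (119362957 to 119371984) held 3, and 1 on chromosome 8 (97213555 to 97221131) held 2. Neither of these overlapped H3K27ac in flox/- MEF.

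H3K4me3, the promoter mark, was the most stable of the marks. Of 17023 MEF peaks, 2595 were lost (15.2%, 14.7 to 15.8), and of 18684 day 4 peaks 2261 were new (12.1%, 11.6 to 12.6). Most losses did not recur in the other genotype. Of the 2415 lost peaks that flox/- MEF also held, 730 (30.2%) had no flox/- day 4 peak, against 0.826% of kept ones. The flox/- day 4 list covered 35.8 Mb with a median width of 1568 bp, against 18.7 Mb and 867 bp in +/+ cells. The part of this coverage in the low recurrence was not tested. The median width of the +/+ MEF peaks was 533 bp for lost and 1212 bp for kept ones. Losses numbered 34 of 4256 peaks in the third quartile of MEF score and 8 of 4256 in the highest. With peaks set to 250 bp either side of the midpoint, 26.9% of day 4 peaks were new. Acetylated MEF H3K4me3 peaks were lost in 11.9% of cases and unacetylated ones in 60.0%, which is 48.1 points more (45.2 to 50.9). Of the 1176 unacetylated peaks 923 were in the lowest score quartile, where 42.5% of acetylated and 68.1% of unacetylated peaks were lost. In the second quartile the shares were 10.7% and 33.2%, so the gap was smaller at like scores. New peaks were likewise small, with a median width of 468 bp, and 70.5% of them overlapped MEF H3K27ac, against 96.9% of kept day 4 peaks. The flox/- MEF H3K4me3 list overlapped 86.7% of new and 99.9% of kept peaks. Oct4 was found at 13.8% of new and 12.1% of kept day 4 H3K4me3 peaks.

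The fate of an H3K4me3 promoter differed with its companion marks in MEF. Of 14992 peaks with H3K27ac only, 89.0% had H3K4me3 and 90.6% H3K27ac on day 4. Of 855 peaks with H3K27ac and H3K27me3 together, 71.2% had H3K4me3 and 42.1% H3K27ac. Of 595 peaks with H3K27me3 only, the bivalent arrangement of poised developmental genes, 52.9% had H3K4me3, 7.73% H3K27ac and 4.37% H3K27me3 on day 4. Of 581 peaks with neither, 26.7% had H3K4me3. In iPS cells, H3K4me3 was found at 97.8% of the bivalent and 51.8% of the unaccompanied peaks. These groups also differed in median width, with 1167, 800, 582 and 516 bp in the order given.

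H3K27me3 was nearly absent from the day 4 list. Of 36232 MEF peaks over 62.8 Mb, 35845 were lost (98.9%, 98.8 to 99.0). The 570 day 4 peaks covered 0.122 Mb. Their median width was 194 bp, against 1097 bp in MEF, and 5.26% of them had a score of at least 100. The flox/- list was equally short at this stage, with 567 peaks, the +/+ day 8 list had 939, and the iPS list had 26114. Whether the short lists reflect the cells or the libraries was not tested.

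What was left of H3K27me3 lay mostly inside wide MEF peaks of high score. The narrow day 4 peaks themselves recurred little in the other short lists. Of the 570 day 4 peaks 26 were new (4.56%, 3.13 to 6.60), and 92.9% of the day 4 bases were under MEF peaks. Of the 544 kept day 4 peaks, 2.57% overlapped flox/- day 4 H3K27me3, 5.51% that of +/+ day 8 and 60.8% that of +/+ iPS cells. The 387 kept MEF peaks had a median width of 8749 bp and a median score of 1738, against 1088 bp and 86.0 for lost peaks. Day 4 H3K27me3 of flox/- cells was found at 16.5% of kept and 0.513% of lost MEF peaks. For H3K27me3 of +/+ day 8 the shares were 28.2% and 1.12%. The part of width in these differences was not tested. In the highest quartile of MEF score 8679 of 9058 peaks were lost, and in the third 9052 of 9058. Among the 570 MEF peaks of highest score, an equal number to day 4, 61.1% were lost and 40.5% of day 4 peaks were new. With peaks set to 250 bp either side of the midpoint 80.5% were new. In the median kept peak, 2.64% of the width was covered on day 4. H3K27me3 was found again in iPS cells at 92.2% of kept and 12.9% of lost MEF peaks. With 500 bp around the midpoint these shares were 65.1% and 7.64%, a difference of 57.5 points (52.6 to 62.1).

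Switches between marks at the same place were few in both directions. Of 34568 MEF H3K27me3 peaks without H3K27ac, 633 carried H3K27ac on day 4 (1.83%, 1.70 to 1.98), and 8 of them still had day 4 H3K27me3. Oct4 was found at 43.6% of the 633 and at 1.32% of the others, with median widths of 1458 and 1071 bp. The 633 are by definition on day 4 H3K27ac and the others are not. Among all day 4 H3K27ac peaks the Oct4 share was 33.6%, and among new distal ones 60.8%. The switched share was 6.75% with equal numbers of peaks per stage and 0.401% with peaks set to 250 bp either side of the midpoint. Of 34847 MEF H3K27me3 peaks without H3K4me3, 516 carried H3K4me3 on day 4 (1.48%), and Oct4 was found at 14.9% of these. Of the 516, 458 had lost and 58 had kept H3K27me3. Before any DOX, the flox/- MEF H3K4me3 list overlapped 7.79% of the 34566 peaks among the 34847 that lost H3K27me3. It overlapped 83.3% of the 281 that kept it. Its share of the 516 alone was not counted. The part of detection in this switch was not tested. The 3 H3K27me3 peaks of highest score that took up H3K27ac were on chromosome 2 (180619916 to 180632643), chromosome 7 (152045630 to 152055093) and chromosome 5 (115017969 to 115025333). Each had day 4 H3K4me3, 1 Oct4 peak and H3K27ac on day 8 and in iPS cells, and none had H3K27ac in flox/- MEF. In iPS cells the places on chromosomes 2 and 5 also had H3K27me3, and that on chromosome 2 had it on day 8 as well.

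The opposite switch was counted over whole MEF H3K27ac peaks that touched no MEF H3K27me3 peak. Of 62406 such peaks, 1 had exchanged it for H3K27me3 on day 4, on chromosome 11 (116391723 to 116396516), and it kept H3K4me3. Read from day 4, 3 of the 26 new H3K27me3 peaks lay on MEF H3K27ac. Among them was 1 of 387 bp on chromosome 8 (73017377 to 73017763) that had H3K27ac and H3K4me3 in MEF and neither on day 4. The day 4 H3K27me3 list of 570 peaks limits what these counts can show. Between the active marks, 752 of 51690 distal MEF H3K27ac peaks overlapped H3K4me3 on day 4 (1.45%, 1.36 to 1.56), and 455 of them kept H3K27ac. The flox/- MEF H3K4me3 list covered 49.0 Mb against 21.1 Mb in +/+ MEF. Before any DOX it overlapped 9.08% of all kept and 3.74% of all lost distal H3K27ac peaks. Its share of the 752 alone was not counted. The part of detection in these H3K4me3 gains was not tested. Oct4 was found at 21.4% of the 752 and 8.23% of the other distal peaks. Of all distal MEF H3K27ac peaks 22.6% were kept, and Oct4 was found at 31.9% of kept and 1.55% of lost ones. The 752 were kept more often, so this contrast is not separate from that of kept and lost peaks. Of 15847 acetylated MEF H3K4me3 peaks, 1115 kept H3K4me3 without H3K27ac (7.04%), and Oct4 was found at 3.14% of these and at 12.9% of the rest.

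Counted in bases, the commonest course was from H3K27ac to no mark. Of 170 Mb with H3K27ac as the only mark in MEF, 121 Mb (71.2%) had none of the 3 marks on day 4 and 46.7 Mb still had H3K27ac alone. A further 23.3 Mb went from no mark to H3K27ac alone. Of 19.8 Mb with H3K4me3 and H3K27ac, 14.5 Mb (73.2%) stayed so and 3.73 Mb kept H3K27ac alone. Of 60.5 Mb with H3K27me3 alone, 59.4 Mb (98.1%) had no mark on day 4 and 0.753 Mb had H3K27ac alone.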

How the data were processed

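Chromatin immunoprecipitation peaks were read from the lists the authors deposited, 1 per library. Per the submitters' processing notes, reads were handled with CASAVA 1.8.2, Bowtie 0.12.5 and MACS 1.4.1 on mm9. Their settings are not given in the sources used here. Each peak carries a score that the authors deposited. Its values, all at least 50, resemble a log-scaled p of the peak caller, which no header states. Samples were grouped by title. Of the 43 lists, 29 were used. Overlap meant at least 1 bp shared, and the overlap code was tested on simulated lists and against bedtools 2.31.1, which gave the same counts in 4 pairs of lists (for example 22344 of 63888 MEF H3K27ac peaks). Shares have 95% Wilson and differences 95% Newcombe intervals, and no test was run with 1 library per stage. The alternatives tried were a minimum score of 100, 50% coverage of the peak, equal numbers of top-scoring peaks, 250 bp either side of the midpoint, autosomes, a gap of 1 kb, peaks on MEF Oct4 peaks left out, H3K4me3 of either stage for the promoter-like class, and the flox/- lists. The regions named are, in each class, the 3 peaks of highest score, ties in chromosome order, leaving out chromosomes 18, X, Y and M and peaks on MEF Oct4 peaks, and for kept distal H3K27ac the 3 largest changes of width in each direction. Only some classes are named in the text. The members, classes and lists were chosen with earlier results of these data known. Planned counts at promoters of gene lists and of sequence content were not run, because the reference tables used here are of GRCm38.p6 and coordinates were not moved between builds. Tables were handled in pandas 2.3.3 and numpy 2.4.6 under Python 3.11.15, intervals checked with scipy 1.17.1, and plots drawn with matplotlib 3.10.9.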

Additional observations from a re-analysis of the deposited data

Results flagged for a closer look

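The median width of H3K27ac peaks rose by 420 bp from MEF to day 4 in +/+ cells, from 2170 to 2590 bp, and fell in flox/- cells from 2373 to 1420 bp. The +/+ rise is one of list medians. In +/+ cells lost MEF peaks had a median of 1801 bp, kept MEF peaks 3164 bp and kept day 4 peaks 2675 bp. Over the 18343 +/+ pairs of 1 MEF and 1 day 4 peak, the median ratio of day 4 to MEF width was 0.872. The number of H3K4me3 peaks rose by 1661 in +/+ cells, from 17023 to 18684, and fell in flox/- cells from 21624 to 20678. Both pairs are marked only because the genotypes moved in opposite directions with 1 library each, and the differences were not tested.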

How the results depend on the processing

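No paired analysis was possible because each stage had 1 library per mark and no test was run. Nor could a replicate be left out. Of 87 values under 9 alternatives, 55 moved beyond their interval and 32 did not. A share cannot turn negative, so only the differences between classes could change direction, and none of them did. Autosomes alone, and leaving out peaks on MEF Oct4 peaks, moved none of the 11 results. Values below follow the order lost then new. With a score of at least 100, the shares were 66.1% and 17.1% for H3K27ac, 13.1% and 8.30% for H3K4me3, and 99.8% and 6.67% for H3K27me3. The loss difference between distal and promoter-like H3K27ac was 66.4 points, the kept minus lost Oct4 difference 23.6 points, and Oct4 at new distal peaks 58.5%. Where 50% coverage was required, they were 70.3% and 24.4% for H3K27ac, 21.6% and 15.9% for H3K4me3, and 100% lost for H3K27me3. The loss difference was 63.7 points, the Oct4 difference 3.78 points, Oct4 at new distal peaks 3.92% and the H3K27me3 to H3K27ac switch 1.16%. By construction an Oct4 peak of median 746 bp can seldom cover 50% of an H3K27ac peak. With equal numbers of top-scoring peaks, the shares were 38.1% and 33.5% for H3K27ac, 18% and 8.96% for H3K4me3, and 61.1% and 40.5% for H3K27me3. The loss difference was 52.0 points, the difference in new share 45.6 points, Oct4 at new distal peaks 52.7% and the switch 6.75%. With 250 bp either side of the midpoint in every list, the shares were 78.6% and 51.5% for H3K27ac, 21.8% and 26.9% for H3K4me3, and 99.7% and 80.5% for H3K27me3. The loss difference was 58.9 points, the difference in new share 41.4 points, the Oct4 difference 16.6 points, Oct4 at new distal peaks 31.0% and the switch 0.401%. With a gap of 1 kb allowed, the shares were 62.2% and 18% for H3K27ac, 9.92% and 7.84% for H3K4me3, and 98.8% lost for H3K27me3. The loss difference was 61.6 points, the difference in new share 27.8 points, Oct4 at new distal peaks 62.6% and the switch 2.44%. With H3K4me3 of either stage defining promoter-like peaks, the loss difference was 63.7 points. In flox/- lists the shares were 66.9% and 45.1% for H3K27ac, 24.2% and 15.3% for H3K4me3, and 99.3% and 50.3% for H3K27me3. Apart from the 50% setting, the cause of these shifts was not tested.

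Read depth is unknown, and 1 library per stage gives no measure of the spread between cultures. The intervals count peaks as if each were independent, which neighbouring peaks are not. A library of lower yield can list fewer peaks, and the part of yield in the H3K27ac and H3K27me3 losses was not tested. The median width of a list also depends on its length. In the MEF H3K27ac list it was 2170 bp over all peaks and 3616 bp over the 28173 peaks of highest score.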

Other observations

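The strongest changes of H3K4me3 were also read. The 3 lost H3K4me3 peaks of highest score were on chromosome 2 (125860190 to 125864857) and chromosome 9 (107609834 to 107612375 and 56712805 to 56714739). All 3 had H3K27ac both in MEF and on day 4, none had H3K4me3 on day 8, and both on chromosome 9 had H3K4me3 and H3K27me3 in iPS cells. Of all 2595 lost H3K4me3 peaks, 72.8% had H3K27ac in MEF, 42.7% had it on day 4 and 20.5% had H3K4me3 on day 8. In iPS cells 68.1% of the 2595 had H3K4me3 and 16.3% had H3K27me3. The 3 new H3K4me3 peaks of highest score were on chromosome 11 (108782603 to 108784309), chromosome 6 (31512157 to 31513915) and chromosome 3 (89030145 to 89031281). Each had H3K27ac on day 4, as did 4651 of the 4671 day 4 H3K4me3 peaks in the highest score quartile. Each held 1 day 4 Oct4 peak and had H3K4me3 on day 8 and in iPS cells. Those on chromosomes 11 and 6 had overlapped MEF H3K27me3.

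Lost distal H3K27ac peaks with day 4 Oct4 were few, 619 of 40000, and were found on day 8 at 35.1%, against 12.8% of the 39381 without Oct4. In iPS cells the shares were 21.3% and 11.5%. They were wider than the rest, with a median of 2137 bp against 1806 bp, and the part of width in the difference was not tested.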
